A study of Mus musculus with 10 samples.

Results

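The genes described here are 9 mRNAs named in the literature as direct targets of miR-126, leaving aside Spred1 and Plk2: Pik3r2, Irs1, Crk, Slc7a5, Adam9, Vcam1, Tom1, Rgs3 and Vegfa. The rule takes them by gene symbol alone, although it was set with earlier results of these data known, and all 9 are among the 25078 genes of the deposited count table. RNA of LSK cells (Lin- Sca-1+ c-Kit+, the stem and progenitor fraction of mouse bone marrow) had been sequenced, with 1 library per mouse, from 5 CM mice and 5 CM/miR-126Δ/Δ mice. CM mice carried the Cbfb56M/+ knock-in allele, which encodes the CBFB-MYH11 fusion of inv(16) acute myeloid leukemia, together with Mx1-Cre. In CM/miR-126Δ/Δ mice these alleles were combined with miR126flox/flox. Both genotypes were on a C57BL/6 background, included both sexes, were 6 to 8 weeks old when taken into experiments, and were sampled at the pre-leukemic stage, 6 weeks after poly(I:C). The Mx1 promoter responds to interferon, so Cre acts also in cells other than LSK, and both genotypes analysed here carry the CM allele. The comparison addressed whether mRNAs named as miR-126 targets were more abundant once the microRNA was deleted.

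A microRNA guides an Argonaute complex to messages whose 3′ untranslated region pairs with its seed, the stretch at positions 2 to 8 from its 5′ end. Pairing lowers the translation of the message, its stability or both, so that loss of a microRNA can raise the protein without raising the mRNA. miR-126 is made from an intron of Egfl7 and is abundant in endothelial cells and in hematopoietic stem cells, where it is known to attenuate signaling through phosphoinositide 3-kinase (PI3K) and AKT. The 9 genes act at different places in that biology: Pik3r2 and Irs1 near the insulin and growth factor receptors, Crk as an adaptor, Slc7a5 as an amino acid transporter, Adam9 as a membrane protease, Vcam1 in adhesion, Tom1 in endosomal sorting, Rgs3 at G proteins, and Vegfa as a secreted growth factor.

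The sequences compared here are the mature 3p strand and the stretches of the 9 messages that face it. Sites of the 5p strand of the same hairpin were not searched, since its mature sequence was not at hand. RefSeq gives mmu-miR-126a-3p at chr2:26591402-26591423 on the plus strand of GRCm38.p6. Its seed is in capitals:
mmu-miR-126a-3p: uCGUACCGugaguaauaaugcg
The 3′ untranslated regions of GENCODE M1 transcripts were read 5′ to 3′ on the transcript strand for GGTACG (opposite positions 2 to 7), GGTACGA (the same 6 bases followed by an A opposite position 1), CGGTACG (opposite positions 2 to 8) and CGGTAC (opposite positions 3 to 8, called offset). A match of positions 2 to 8 therefore holds a 6-base match and an offset match as well. The following 22-base windows end opposite position 1 of the microRNA, with the matching bases in capitals.
Irs1: tcctcttcagtagatGGTACGA
Crk: atttaccatattcagGGTACGA
Slc7a5: ctgtgaaagaaaactGGTACGA
Adam9: aagtgcacactctatGGTACGA
Tom1: gctgcccactgtcctGGTACGA
Rgs3: ggtccttaacgccctGGTACGA
Vcam1: tacatggtactgtaCGGTACGg
Pik3r2: cagcaggttttgtaCGGTACat
Vegfa: aagtgttttatataCGGTACtt
GGTACGA stood in at least 1 transcript of 6 members, while Vcam1 alone held CGGTACG. Pik3r2 and Vegfa held the offset match and no GGTACG. Thus GGTACG was found in 7 of 9 members, against 3.89% of the 14280 fitted genes that have a 3′ untranslated sequence. The same background held GGTACGA in 0.987% of genes, CGGTACG in 0.322% and the offset match in 4.8%. These letters are a description of the windows, and the literature may have named the genes partly from them.

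The place of the match varied between members and between transcripts of 1 gene. In Irs1 it began at base 132 of 4525 after the stop codon, in Slc7a5 at base 169 of 1888 and in Crk at base 301 of 3535. In Adam9 it began at base 803 of 1306 and in Tom1 at base 483 of 717. The Vcam1 match began at base 627 of the 857 bases of the shorter transcript and was not in the longer one of 1409 bases. Rgs3 held it in 5 of 8 transcripts, at base 213, but not in the one with the longest 3′ region of 2630 bases. Crk held it in 3 of 6 transcripts. The deposited counts are per gene, so the share of each transcript is not known.

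**Figure D1:**
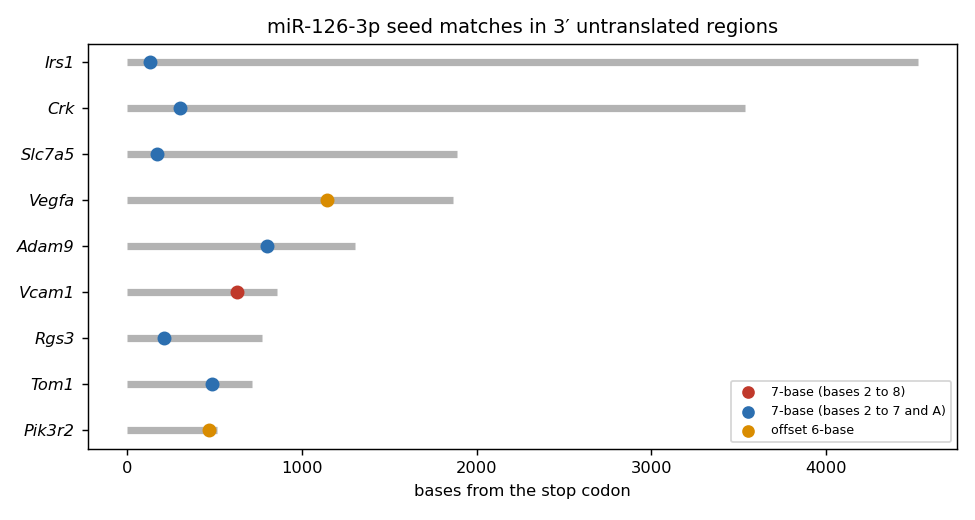
Position of each match in the 3′ untranslated region of 1 transcript per gene, with the x axis giving bases after the stop codon and the symbols giving the class of match. Irs1 has its match 132 bases after the stop codon of a 4525-base region, whereas the offset match of Pik3r2 lies at base 471 of 514.

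All 9 genes lie apart from other listed genes, with 0 overlaps in the deposited positions. In mm10, Pik3r2 lies at chr8:70768176-70776712, Slc7a5 at chr8:121881146-121907686 and Adam9 at chr8:24949611-25016922, all on the minus strand, and Tom1 at chr8:75033686-75070121 on the plus strand. Irs1 lies at chr1:82233105-82291439, Vcam1 at chr3:116110020-116129688 and Vegfa at chr17:46016993-46032377, on the minus strand. Crk lies at chr11:75679259-75708428 and Rgs3 at chr4:62559847-62703019, on the plus strand. Counts cover the exons of each gene.

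Total counts per library were 23649233 to 33202086 in CM and 24141663 to 26615091 in CM/miR-126Δ/Δ mice, so that 3 counts, taken as the least detectable level, stood for 0.0904 to 0.127 CPM (counts per 1000000 counted reads). Such floors cover counting error only, while the intervals given for fold changes include the spread between mice. The library preparation was for messenger and other long RNA, and the mature microRNA was not measured. Reads on the Mir126a precursor were 4, 5, 0, 2 and 3 in CM mice 1 to 5 and 0 in each of the 5 CM/miR-126Δ/Δ mice. These are few, and 1 CM library also had 0. The host gene Egfl7 had means of 114 ± 20.0 and 107 ± 12.2 CPM in the CM and CM/miR-126Δ/Δ groups (SD, n = 5 each; edgeR adjusted p = 0.845). Mice 1 to 3 of both genotypes were female and mice 4 and 5 male by Xist and Y-linked counts. The 8 LSK markers summed to between 2880 and 3410 CPM in CM mice, and to between 2750 and 3400 CPM after deletion.

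Per length of exon, the 9 members spanned a wide range of levels in LSK cells. Slc7a5 was highest, with a mean of 33.3 RPKM (CPM per kilobase of exon) over the 10 mice, and it exceeded Crk (20.8 RPKM) in 10 of 10 mice. Crk exceeded Pik3r2 (11.3 RPKM) in 10 of 10. The order of the middle of the list was not settled by the spread between mice: Pik3r2 exceeded Vcam1 (9.73 RPKM) in 6 of 10 mice, and Vcam1 exceeded Adam9 (8.55 RPKM) in 5 of 10. Adam9 exceeded Vegfa (4.14 RPKM) in 9 of 10 mice. Vegfa exceeded Rgs3 (1.49 RPKM), Rgs3 exceeded Tom1 (0.238 RPKM) and Tom1 exceeded Irs1 (0.0111 RPKM) in 10 of 10 mice each. Thus 2 of the 9 named targets, Tom1 and Irs1, were at or near the limit of detection in these cells.

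**Figure D2:**
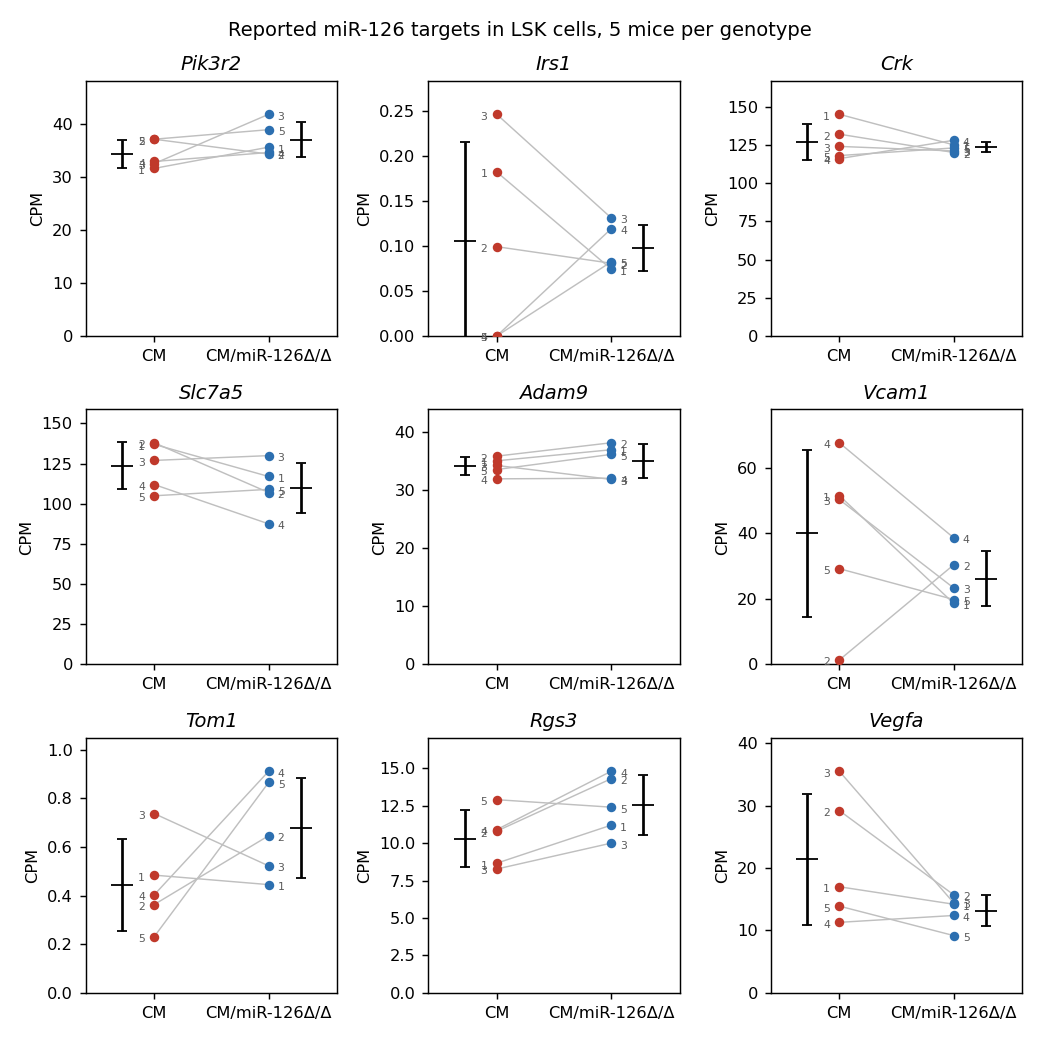
CPM of each of the 9 members in each mouse, with 1 panel per gene and axes starting at 0. Points are mice with their numbers, and bars give the mean and SD of 5 mice per genotype. The genotypes overlap in all 9 panels, and CM mouse 2 stands near 0 for Vcam1.

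Not 1 of the 9 members passed the test between the genotypes. In edgeR's quasi-likelihood test across 18747 genes, 0 members had an adjusted p (Benjamini-Hochberg) under 0.05, against 0.0107% of all genes, or 2 genes. At an unadjusted p under 0.05 there was 1 member, Vegfa, which was lower in CM/miR-126Δ/Δ mice, and 0 that were higher. Over all genes 6.61% had such a p, 3.29% being higher and 3.32% lower. A rule on size (p at or below 0.01, a fold of at least 1.5 and an RPKM of at least 1 in either genotype) named 0 members and 0.288% of genes. The ranges of the genotypes overlapped for 9 of 9 members, while over all genes 1.09% had ranges that did not.

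The directions of the edgeR fold changes were divided evenly, that of Vcam1 depending on the scale as given below. Of the 8 members above the floor, 4 had a level above that of CM mice (Pik3r2, Adam9, Tom1 and Rgs3) and 4 a level below it (Crk, Slc7a5, Vcam1 and Vegfa), with 47.4% of all genes above. Of the 7 with a mean of at least 1 CPM, 3 were above, and 42.7% of the 12275 genes at that level were. The median log2 fold change of those 7 was −0.04, beside −0.02 over the 12275 genes. Same-numbered mice of the 2 genotypes, which were also of the same sex, deviated together. The test was therefore also fitted with the mouse number as a block. The block gave an adjusted p under 0.05 to 0 members and to 0.107% of genes, or 20 genes. At an unadjusted p under 0.05 it gave 3 members, against 8.89% of genes: Rgs3 higher (4.27% of genes) and Slc7a5 and Vegfa lower (4.62% of genes).

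**Figure D3:**
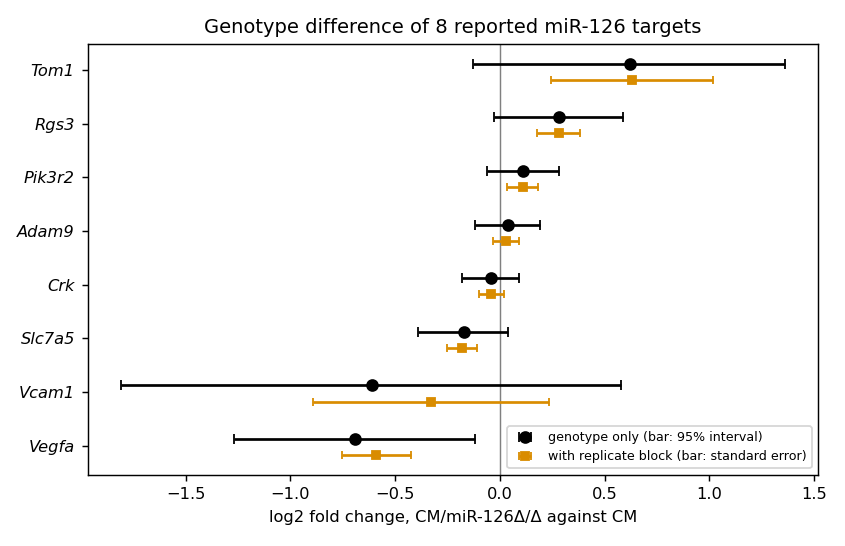
Log2 fold change (CM/miR-126Δ/Δ over CM) of the 8 members above the floor, on genotype alone and with the mouse number as a block. Bars are 95% intervals for genotype alone and standard errors for the block. The intervals on genotype alone contain 0 except for Vegfa (−1.27 to −0.12), and those of Crk and Adam9 are narrow, between −0.18 and 0.19.

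Pik3r2 encodes p85β, a regulatory subunit that holds the catalytic subunit of PI3K. Its level was 31.6, 37.1, 32.5, 32.9 and 37.1 CPM in CM mice 1 to 5 and 35.6, 34.3, 41.8, 34.6 and 38.9 CPM in CM/miR-126Δ/Δ mice 1 to 5. The genotypes overlapped, with 2 CM/miR-126Δ/Δ mice, numbers 3 and 5, above every CM mouse. The means were 34.3 ± 2.68 and 37.0 ± 3.26 CPM (SD, n = 5 each), which is a log2 fold change of 0.11 with a standard error of 0.0786 (edgeR adjusted p = 0.765). The 95% interval ran from 0.962-fold to 1.22-fold.

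Irs1, an insulin receptor substrate that recruits PI3K to the receptor, was at the limit of detection. Its counts were 6, 3, 6, 0 and 0 in CM mice 1 to 5 and 2, 2, 3, 3 and 2 in CM/miR-126Δ/Δ mice 1 to 5. The mean of both genotypes was thus at or under the 3-count floor, no fold is given, and a difference was not detectable at this depth. Irs2, the related substrate in the list of 15 partner genes of this arm, stood at 7.69 RPKM in CM and 6.4 RPKM in CM/miR-126Δ/Δ mice.

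Among the other genes of the insulin and PI3K arm the signs were mixed, with 9 of 15 above, 6 below and 0.02 as the median log2 fold change. The gene with the highest level was Akt1, the AKT kinase downstream of PI3K, at 89.5 RPKM in CM and 83.2 RPKM in CM/miR-126Δ/Δ mice (edgeR adjusted p = 0.765). On genotype alone 1 gene of the 15 had an edgeR unadjusted p under 0.05, or 6.67% of the list beside 6.61% of all genes. With the block Pik3cd did too (0.0407), beside 8.89% of genes. The 1 gene was Akt2, the paralog of Akt1, at 45.5 ± 2.91 and 57.7 ± 1.46 CPM in the CM and CM/miR-126Δ/Δ groups (SD, n = 5 each). Its log2 fold change was 0.34 with a standard error of 0.0555. The ranges did not overlap (41.2 to 49.0 and 55.5 to 59.3 CPM), as for 1.09% of all genes. The adjusted p was 0.104 on genotype alone and 0.044 with the block, both from edgeR. Akt2 thus passed as higher by the latter test only, by which 0.107% of all genes passed.

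Crk encodes an adaptor that links tyrosine-phosphorylated scaffolds to exchange factors for small GTPases. It was 145, 132, 124, 116 and 118 CPM in CM mice and 125, 120, 121, 128 and 123 CPM in CM/miR-126Δ/Δ mice. All 5 CM/miR-126Δ/Δ mice lay within the range of the CM mice. The log2 fold change was −0.04 with a standard error of 0.0623 (edgeR adjusted p = 0.889), and the 95% interval ran from 0.886-fold to 1.07-fold. Without CM mouse 1 it was 0.02. Of 10 CRK partners, 6 were above and 4 below. On genotype alone 1 had an unadjusted p under 0.05, beside 6.61% of all genes. It was the ubiquitin ligase Cblb (log2 fold change 0.14, standard error 0.0634, edgeR adjusted p = 0.748). With the block Cbl did too (edgeR unadjusted p = 0.0448), beside 8.89% of genes. The adaptor-binding scaffold Pxn (paxillin), the partner with the highest level, stood at 43 and 42.8 RPKM.

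Slc7a5 encodes LAT1, the light chain of a transporter of large neutral amino acids such as leucine. Its level was 137, 138, 127, 112 and 105 CPM in CM mice and 117, 107, 130, 87.5 and 109 CPM in CM/miR-126Δ/Δ mice. CM mice 1 and 2 lay above every CM/miR-126Δ/Δ mouse, the lowest mouse was a CM/miR-126Δ/Δ mouse, and the genotypes overlapped otherwise. Means were 35.3 ± 4.2 RPKM in CM and 31.3 ± 4.39 RPKM in CM/miR-126Δ/Δ mice (SD, n = 5 each). The log2 fold change was −0.17 with a standard error of 0.1 (edgeR unadjusted p = 0.107, adjusted p = 0.765), and with the block it was −0.18 with a standard error of 0.0718 (unadjusted p = 0.0308, adjusted p = 0.485). A rise of more than 1.03-fold lay outside the 95% interval on genotype alone.

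The partners of Slc7a5 had the same sign in most cases. Of 10 amino acid transporters and partner chains, 1 was above and 9 below, with a median log2 fold change of −0.14 beside −0.02 for genes at 1 CPM or more. On genotype alone 3 were lower at an edgeR unadjusted p under 0.05, as were 3.32% of all genes (with the block also Slc7a8, 0.0464). Slc3a2, the heavy chain (CD98) that carries LAT1 to the membrane, had means of 122 ± 10.7 and 106 ± 6.09 CPM in the CM and CM/miR-126Δ/Δ groups (SD, n = 5 each). Its log2 fold change was −0.21 with a standard error of 0.066 (edgeR adjusted p = 0.661; with the block, 0.204). Slc7a6 (−0.17) and the glutamine transporter Slc1a5 (−0.13) were the others, each with an edgeR adjusted p above 0.7 on genotype alone. The transporter with the highest level, Slc38a2, had a log2 fold change of −0.12 (edgeR adjusted p = 0.766).

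Adam9 encodes a membrane-anchored metalloprotease that sheds the outer parts of surface proteins. It was 35.0, 35.8, 34.2, 31.9 and 33.5 CPM in CM mice and 36.9, 38.1, 31.8, 32 and 36.1 CPM in CM/miR-126Δ/Δ mice. It varied least of all 9 members, by 1.2-fold between the lowest and the highest of the 10 mice. The log2 fold change was 0.04 with a standard error of 0.0719 (edgeR adjusted p = 0.919), and the 95% interval ran from 0.922-fold to 1.14-fold. Among 9 ADAM proteases and TIMP inhibitors, 3 were above and 6 below. Adam15 had the 1 edgeR unadjusted p under 0.05 on genotype alone, beside 6.61% of all genes. With the block Timp3 did too (0.0182), beside 8.89% of genes. The log2 fold change of Adam15 was −0.23 with a standard error of 0.0732 (edgeR adjusted p = 0.661). Adam10, the highest, stood at 77.5 and 76.7 RPKM.

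Vcam1 encodes the adhesion molecule that binds the integrin α4β1 of hematopoietic cells. It varied most of all members, by 49.9-fold over the 10 mice, with 51.5, 1.35, 50.3, 67.6 and 29.2 CPM in CM mice 1 to 5 and 18.6, 30.4, 23.3, 38.6 and 19.8 CPM in CM/miR-126Δ/Δ mice 1 to 5. CM mouse 2 lay far below every other mouse, and 3 of the other 4 CM mice lay above every CM/miR-126Δ/Δ mouse. With all mice the means were 40.0 ± 25.6 and 26.1 ± 8.35 CPM (SD, n = 5 each) and the log2 fold change was −0.61 with a standard error of 0.558 (edgeR adjusted p = 0.768). An exact permutation test on mean log2 CPM gave p = 0.984 (two-sided). On that scale the mean was slightly higher in CM/miR-126Δ/Δ mice, so the direction of Vcam1 depended on the scale. The female mice differed by 0.63 and the male mice by −0.68 on the log2 scale, the female value being that which contains CM mouse 2.

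The value of Vcam1 rested on that library. Without CM mouse 2 the log2 fold change was −0.93 (edgeR unadjusted p = 0.00131, adjusted p = 0.535). With the block and without both mice numbered 2 it was −0.99 (edgeR adjusted p = 0.0142), and with the block and without both mice numbered 1 it was 0.03. These leave-outs under the block were chosen after the values were seen. No value of Vcam1 that passed the test was a rise.

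Genes of resident macrophages shared this profile. Over the 10 libraries, the gene nearest to Vcam1 in standardised log2 CPM, of 12275, was Fcna, which encodes ficolin A, with a root mean square difference of 0.107. It was 14.9, 0.43, 19.9, 22.9 and 8.78 CPM in CM mice and 7.38, 10.8, 6.79, 11.4 and 6.5 CPM in CM/miR-126Δ/Δ mice. The second was the macrophage sialoadhesin Siglec1, with a difference of 0.124 and 0.397 CPM in CM mouse 2 against 5.19 to 13.3 CPM in the others. C1qa, a complement component made by macrophages, was 0.793 CPM in CM mouse 2 and 12.4 to 22.5 CPM in the other CM mice. Cd68 and Csf1r, of the same list of 8 markers, were far less reduced there. They had 15.2 and 65.4 CPM in CM mouse 2, against 14.9 to 26.9 and 72.6 to 131 CPM in the other CM mice. By the edgeR fold change all 8 were lower in CM/miR-126Δ/Δ mice, 0 with an unadjusted p under 0.05, beside 6.61% of all genes. For those near 0 in CM mouse 2 the direction can depend on the scale, as for Vcam1.

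Summed over the 8 macrophage markers, CM mice ranged from 85.8 to 245 CPM with a median of 209 and CM/miR-126Δ/Δ mice from 98.2 to 188 CPM with a median of 136 (exact permutation test, two-sided, p = 0.365). Summed erythroid markers were also lowest in CM mouse 2, at 7.9 CPM against 38.5 to 82.1 CPM in the other CM mice. The part of the macrophage and erythroid markers in the Vcam1 result was not tested. Cells positive for lineage markers, CD11b among them, had been depleted before the LSK sort. Endothelial cells also express Vcam1. Of their 8 listed markers, Cdh5, Kdr, Plvap and Cldn5 had mean levels of 0.755, 1.68, 2.33 and 0.42 CPM, whereas Emcn, Tie1, Egfl7 and Pecam1, which hematopoietic stem cells also express, had 14.2, 62.4, 111 and 191 CPM. Their sum ranged from 349 to 428 CPM in CM mice (418 CPM in CM mouse 2) and from 358 to 399 CPM in CM/miR-126Δ/Δ mice, and its part in the Vcam1 result was not tested. In bulk libraries, fewer cells of a type and less RNA per cell cannot be told apart. Of the receptors and related adhesion genes of the Vcam1 list, 8 of 9 were measured, 2 being above and 6 below, and 3 had an unadjusted p under 0.05, all lower as were 3.32% of all genes at that p: Itgb7 (log2 fold change −0.23), Itga9 (−0.32) and Icam2 (−0.16). None of the 3 passed the adjusted test in edgeR, on genotype alone or with the block. Msn (moesin), the highest in level, stood at 135 and 138 RPKM.

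**Figure D4:**
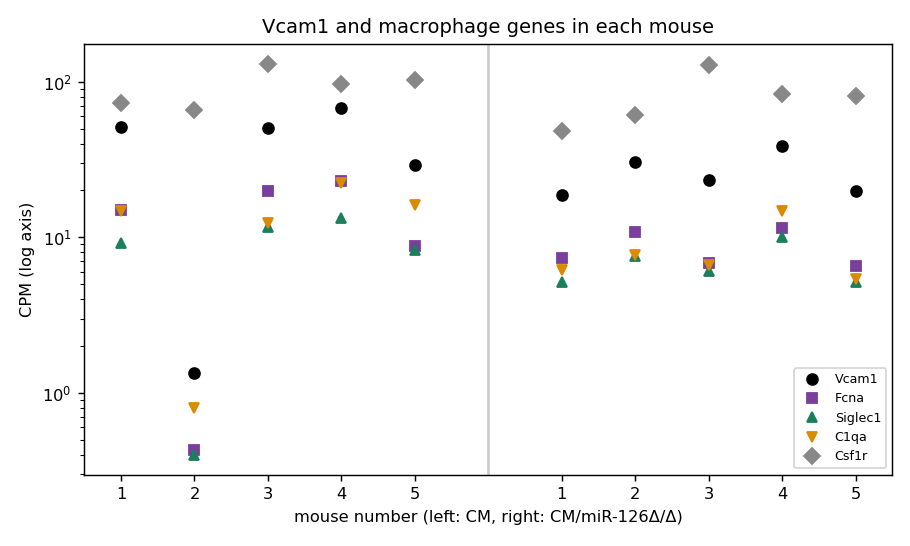
CPM of Vcam1 and of macrophage genes in each of the 10 mice, on a log axis. The point of Vcam1 is lowest in CM mouse 2, at 1.35 CPM, and those of Fcna (0.43), Siglec1 (0.397) and C1qa (0.793) are lowest in the same library. That of Csf1r (65.4) is not.

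Tom1 takes part in sorting ubiquitinated cargo at endosomes. It was near the limit of detection, with 16, 11, 18, 12 and 7 counts in CM mice and 12, 16, 12, 23 and 21 counts in CM/miR-126Δ/Δ mice. In CPM the genotypes overlapped, at 0.444 ± 0.188 in CM and 0.678 ± 0.205 in CM/miR-126Δ/Δ mice (SD, n = 5 each). The log2 fold change, 0.62, was the highest among the members, but with a standard error of 0.347 its 95% interval ran from 0.917-fold to 2.57-fold (edgeR unadjusted p = 0.0965, adjusted p = 0.765). The difference was larger in the male mice, which differed by 1.48 on the log2 scale against 0.07 in the female mice (edgeR test of the difference, unadjusted p = 0.0496, adjusted p = 1.0). The related Tom1l1 and Tom1l2 were higher per length, at 5.49 and 7.1 RPKM in CM mice. Of 10 partners, 2 were above and 8 below. Gga1, a coat adaptor, had the 1 unadjusted p under 0.05 on genotype alone, beside 6.61% of all genes (log2 fold change −0.12, edgeR adjusted p = 0.746). With the block Myo6 did too (edgeR unadjusted p = 0.0353), beside 8.89% of genes. Tollip was the highest, at 20.1 and 19.1 RPKM.

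Rgs3 encodes a protein that speeds GTP hydrolysis by G protein α subunits and so shortens signals from chemokine receptors. It was 8.66, 10.8, 8.27, 10.9 and 12.9 CPM in CM mice and 11.2, 14.3, 10.0, 14.8 and 12.4 CPM in CM/miR-126Δ/Δ mice. The CM/miR-126Δ/Δ mouse was the higher one in 4 of 5 same-numbered pairs, and the ranges overlapped. The means were 10.3 ± 1.9 and 12.5 ± 2.02 CPM (SD, n = 5 each), which is a log2 fold change of 0.28 with a standard error of 0.144 and a 95% interval from 0.981-fold to 1.5-fold (edgeR unadjusted p = 0.0717, adjusted p = 0.764). With the block it was 0.28 with a standard error of 0.104 (unadjusted p = 0.0182, adjusted p = 0.418). The difference was 0.35 on the log2 scale in female and 0.19 in male mice.

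Other RGS genes were of either sign. Of 12 RGS proteins and G protein α subunits, 5 were above and 7 below, Rgs12 (0.09), Rgs16 (0.38) and Rgs18 (0.05) being among those above. Rgs16 was near the floor, at 0.155 and 0.208 CPM in the CM and CM/miR-126Δ/Δ groups, and its standard error was 0.706. On genotype alone 2 of the 12 had an unadjusted p under 0.05, both below, beside 3.32% of all genes that were lower at that p. Rgs2 averaged 189 ± 77.2 CPM in the CM group and 106 ± 46.2 CPM after deletion (SD, n = 5 each), which is a log2 fold change of −0.84 with a standard error of 0.299 (edgeR adjusted p = 0.736; with the block, 0.129). Rgs1 was 113 ± 63.0 and 58.4 ± 36.8 CPM, a log2 fold change of −0.95 with a standard error of 0.442 (edgeR adjusted p = 0.754; with the block, 0.206). Gnai2, the inhibitory α subunit with the highest level, stood at 240 RPKM in CM and 227 RPKM in CM/miR-126Δ/Δ mice (edgeR adjusted p = 0.765).

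Vegfa encodes the growth factor that acts on endothelial VEGF receptors and that hematopoietic stem cells also make. It was 17, 29.2, 35.5, 11.3 and 13.9 CPM in CM mice 1 to 5 and 14.2, 15.7, 14.4, 12.4 and 9.18 CPM in CM/miR-126Δ/Δ mice 1 to 5. CM mice 2 and 3 stood apart at the top, and CM mouse 1 (17 CPM) lay just above the highest CM/miR-126Δ/Δ mouse (15.7 CPM). CM mice 4 and 5 lay within the range of the CM/miR-126Δ/Δ mice. The CM/miR-126Δ/Δ mouse was the higher one in 1 of 5 pairs. The means were 21.4 ± 10.5 and 13.2 ± 2.53 CPM (SD, n = 5 each), which is a log2 fold change of −0.69 with a standard error of 0.27 and a 95% interval from 0.414-fold to 0.922-fold (edgeR unadjusted p = 0.0219, adjusted p = 0.746).

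With the block the log2 fold change of Vegfa was −0.59 with a standard error of 0.166 (edgeR unadjusted p = 0.00396, adjusted p = 0.249). An exact permutation test of the same gene over all splits of the mice gave p = 0.167 (two-sided). Without CM mouse 3 the log2 fold change was −0.42 (edgeR unadjusted p = 0.0905), and the unadjusted p was also above 0.05 without CM mouse 2 (0.06) or without CM/miR-126Δ/Δ mouse 5 (0.0553). The difference was −0.82 on the log2 scale in female mice, which include CM mice 2 and 3, and −0.23 in male mice (edgeR test of the difference, unadjusted p = 0.0808, adjusted p = 1.0). Of the 11 other VEGF ligands, receptors and hypoxia factors, 2 were above and 9 below. On genotype alone 0 had an edgeR unadjusted p under 0.05, beside 6.61% of all genes. With the block Kdr did (0.0224, lower), beside 8.89% of genes. The highest of them, Hif1a, stood at 17.6 and 17.1 RPKM, and the VEGF receptor Kdr at 0.257 and 0.18 RPKM.

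Spred1 and Plk2, the 2 targets left aside above, did not pass the adjusted test either. Spred1, an inhibitor of RAS and ERK signaling, held GGTACGA (tttaactaaatgtaaGGTACGA) and averaged 128 ± 18.4 CPM in the CM group and 144 ± 21.9 CPM after deletion (SD, n = 5 each), which is a log2 fold change of 0.17. The kinase gene Plk2 (agtcggacaggtggtGGTACGA) was 13.8 ± 13.4 and 6.37 ± 4.85 CPM, a log2 fold change of −1.11. CM mouse 2 had 37.0 CPM and the other CM mice 2.87 to 12.4 CPM, and without it the log2 fold change was −0.33 (edgeR adjusted p = 0.92). Leaving out any other single mouse gave −1.36 to −0.84. For Plk2 the CM/miR-126Δ/Δ mouse was the higher one in 1 of 5 pairs. With the block the edgeR unadjusted p was 0.0234 for Spred1 and 0.00559 for Plk2, and the adjusted p 0.453 and 0.28. With them, the list of 7 further reported targets had 2 above and 5 below. Among the 5 was Igfbp2, at the floor with 0.123 and 0.0693 CPM in the CM and CM/miR-126Δ/Δ groups. The highest gene of the list, the DNA methyltransferase Dnmt1, was also counted below, though it was at 99.8 RPKM in both genotypes.

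The matches themselves were also set against the fold changes of all genes with a 3′ untranslated sequence. Of 10370 genes with a mean of at least 1 CPM, 434 held GGTACG in at least 1 transcript. Their median log2 fold change was 0.01, beside −0.02 in the 9936 genes without it, and 54.1% of them were higher in CM/miR-126Δ/Δ mice, beside 41.2%. Among them 25 were higher and 11 lower at an unadjusted p under 0.05 in edgeR, and 0 passed the adjusted test. The 35 genes with CGGTACG had a median of 0.04, and 68.6% of them were higher.

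The length of the 3′ untranslated region moved with this difference. Genes with GGTACG had a median length of 2500 bases and genes without it 1163 bases. Genes were split by length into 4 sets of like size. In the set with the longest regions, from 2239 bases on, the medians were 0.02 with and 0.01 without the match, and 61.2% and 55.4% of genes were higher. In the set with the shortest, up to 532 bases, they were −0.04 and −0.06, with 28.6% of 14 genes and 30.1% of 2581 genes higher. The members with the match and at least 1 CPM were spread widely, from Rgs3 at 0.28 to Vcam1 at −0.61. The part of length in the difference was not tested.

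**Figure D5:**
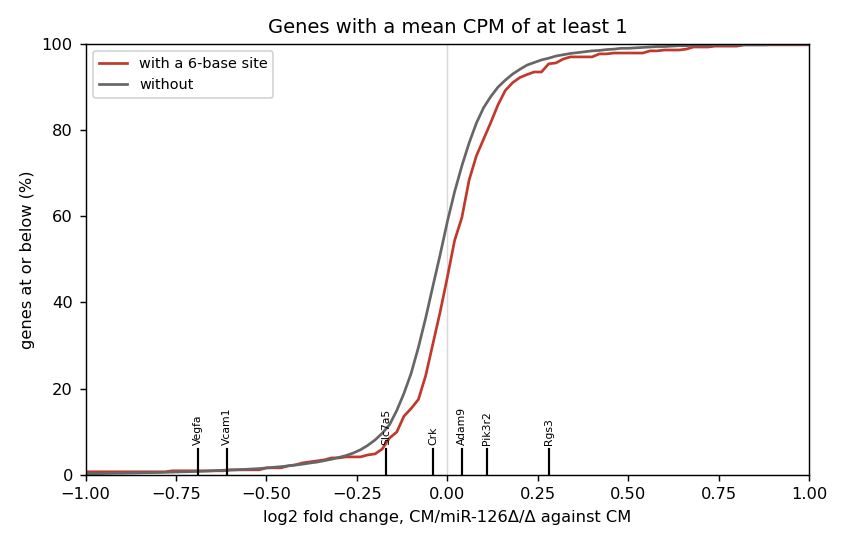
Cumulative share of genes (y axis) by log2 fold change (x axis) for the 434 genes with and the 9936 without GGTACG in a 3′ untranslated region. The line with the match lies slightly to the right, by 0.03 between the medians of 0.01 and −0.02, and the marked members lie on both sides of 0.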

How the data were processed

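RNA-seq counts of 10 LSK libraries were analysed, 5 per genotype, grouped by title. The authors' trimming used Trimmomatic 0.38 followed by FASTP 0.19.4. Alignment to mm10 was by Tophat 2.0.8, and HTSeq 0.6.1 gave counts over RefSeq annotation. The library kit was stranded, and the strand setting of the counting is not given in the sources used here. The deposited counts are whole reads per gene without normalization. The second deposited table was not used here. Labels do not say whether libraries share a litter, so p-values measure the spread between these mice.

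In R 4.3.3, edgeR 4.0.16 (TMM, quasi-likelihood test in the form of edgeR 3, genotype alone, two-sided) was fitted to 18747 genes, leaving out 6331 without a count, with Benjamini-Hochberg adjustment. CPM and RPKM were computed from TMM-scaled library sizes and the file's exon lengths. Log2 CPM used a prior count of 0.5. The tests were checked on simulated data. Mouse numbers in the titles were taken as pairs, since deviations of same-numbered mice correlated at 0.175 to 0.47 over 12275 genes. Mice of different numbers averaged −0.163 to −0.0151. Same-numbered mice also share their sex, which was not taken out of the deviations, so its part in the correlation is not known. Within a genotype no library repeated another, as the lowest chi-square per degree of freedom among the 20 pairs within a genotype was 9.99. GENCODE M1 transcripts follow mm9, so only positions within the transcript are given, and 84.5% of genes at 1 CPM or more had a sequence.

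Every member is named, and of each partner list the gene with the highest RPKM and those with an unadjusted p at or below 0.05, plus the gene whose profile is nearest to each member. Irs2, Pik3cd, Cbl, Slc7a8, Timp3, Tom1l1, Tom1l2, Myo6, Rgs12, Rgs16, Rgs18, Kdr and Igfbp2 were added after their values were seen. Members and lists were chosen with earlier results of these data known. Alternatives were other scaling, filters and dispersions, DESeq2 1.42.0, the block, sex as a term, and leaving out mice.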

Additional observations from a re-analysis of the deposited data

How the results depend on the processing

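Fold changes of the 8 members above the floor were recomputed under 26 alternatives, and 203 of the 207 values kept their direction and their side of the adjusted threshold. The sign turned for Crk without CM mouse 1 (0.02, in a range of −0.06 to 0.02 over single mice left out), for Crk with the block and without the mice numbered 1 (0.02), and for Vcam1 in that same fit (0.03). Vcam1 passed only with the block and without the mice numbered 2 (−0.99), so that members called by adjusted p numbered 0 to 1 over the leave-outs and 0 elsewhere. Members with an unadjusted p under 0.05 numbered 1 by genotype alone and by DESeq2, 0 with robust dispersions, 3 with the replicate block, 3 with sex as a covariate, and 0 to 4 over the leave-outs. Members above CM were 4, with 4 to 6 over the leave-outs and 3 at a mean RPKM of at least 1. Tom1 was left out by that filter.

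Genes called numbered 2 by genotype alone, 3 with the quasi-likelihood of edgeR 4 and with robust dispersions, 4 with upper quartile factors, filterByExpr, a mean RPKM of at least 1 or sex as a covariate, 45 by DESeq2, 20 with the replicate block, and 1 to 7 over the single mice left out. With the block and without the mice numbered 1 to 5 in turn, they were 0, 22, 31, 11 and 2. The block changed no member's call. Members with CGGTACG in the longest 3′ region were 0, 1 in any transcript, while GGTACG was in 5 and in 7 of any transcript, and GGTACGA in any transcript in 6. The offset match and the searches for GGTACG and GGTACGA over any transcript were chosen after the data were seen.

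Upper quartile factors moved the median of all genes at 1 CPM or more to 0.01 from −0.02. Tom1 and Irs1 had the fewest counts of the members, and Vcam1 and Vegfa had SDs of 25.6 and 10.5 CPM among CM mice.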

Other observations

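For each member with a mean of at least 1 CPM, the gene with the nearest profile over the 10 libraries was found among 12275 genes by the root mean square difference of standardised log2 CPM. For Slc7a5 it was Sdad1, a gene of ribosome biogenesis (0.222), followed by the cationic amino acid transporter Slc7a1 (0.26) and by Eprs, which encodes an aminoacyl-tRNA synthetase (0.306). Slc7a1 was 141, 139, 127, 116 and 110.0 CPM in CM mice and 118, 108, 141, 83.4 and 121 CPM in CM/miR-126Δ/Δ mice, and the lowest mouse was CM/miR-126Δ/Δ mouse 4, as for Slc7a5. For Vegfa it was Picalm (0.276), an adaptor of clathrin coats, for Rgs3 Map3k9 (0.322), for Pik3r2 Bcl9l (0.327), for Adam9 Taf1 (0.393) and for Crk Polr3g (0.409). These distances are larger than that of Vcam1 to Fcna. Map3k9 had a log2 fold change of 0.34 (edgeR unadjusted p = 0.0498, adjusted p = 0.754). The profiles share libraries and depth, and no test was made of them.

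Over the 8 partner lists, 85 of 86 genes were measured, with 30 above and 55 below CM and a median log2 fold change of −0.05. Of these, 14.1% had an unadjusted p under 0.05 in edgeR, 2 of them higher and 10 lower, beside 6.61% of all genes (3.29% higher and 3.32% lower). Over all genes 47.4% were above CM, and 42.7% of those at 1 CPM or more. In the lists 0 passed the adjusted test on genotype alone.

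Summed neutrophil markers ranged from 2.03 to 160.0 CPM in CM and from 1.48 to 360.0 CPM in CM/miR-126Δ/Δ mice, and erythroid markers from 7.9 to 82.1 and from 14.7 to 79.6 CPM, with Hba-a1, Hba-a2 and Hbb-bt at 0 in all libraries. Stromal markers had medians of 126 and 114 CPM, but most of that sum was Pdgfrb, with a mean of 115 CPM. The means of Cxcl12, Col1a2, Col1a1, Lepr and Pdgfra were 3.24, 1.81, 0.314, 0.0857 and 0.0643 CPM. Ranges were for B cell markers 28.1 to 39.5 and 24.3 to 38.1 CPM, and for T cell markers 5.78 to 12.7 and 5.93 to 10.7 CPM. Cd79b (mean 23.6 CPM) made up most of the B cell sum, and Cd4 (4.95 CPM) most of the T cell sum.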
